A study of Mus musculus with 663 samples.

Results

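The Sprr2 genes encode small proline-rich proteins and lie side by side on mouse chromosome 3. All rows of the deposited expression table whose names start with Sprr2 were taken, which gave 13 of 43347 gene names. They were followed through 662 single cells of 6 stages, and 8 of the 13 rows were above 0 in at least 1 cell. Sprr2d led the choice because earlier results of these data showed it at E12.5 (E stands for embryonic day), so its levels by stage are given as a description, with no test. Every cell came from gonads labelled XX of mice on a mixed background that carried the NR5A1-eGFP reporter, a green fluorescent protein driven by the gene Nr5a1. No group lacked the reporter, and the labels name no treatment. Cells positive for the reporter and negative for the dead-cell dye Draq7 were sorted, although the reporter and Nr5a1 were listed at 0 in some of the cells deposited. They were then captured on small C1 microfluidic chips and amplified with SMARTer chemistry. The groups were 71 cells at E10.5 from 1 chip capture, 106 at E11.5 from 2, 53, 53 and 57 at E12.5 from 3, 106 at E13.5 from 2, 95 at E16.5 from 2 and 121 at postnatal day 6 (P6) from 2. These captures were read from the sample titles, while the study's design text speaks of 2 for embryonic stages after E10.5, so the third at E12.5 is not accounted for there.

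Small proline-rich proteins are known as building blocks of the cornified envelope, the sheath that transglutaminases crosslink beneath the membrane of keratinocytes. Their genes sit within the epidermal differentiation complex, next to those of loricrin, involucrin, filaggrin and many S100 proteins. Members of the family are also known from the mouse uterus, where some respond to oestrogen, and from other simple epithelia under stress or injury. In the gonad, the supporting cells of the early ovary are marked by the transcription factor gene Foxl2 and by Fst, the gene of follistatin, which binds and blocks activin.

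In the annotation of GRCm38 used here (GENCODE vM21), the 13 genes lay on the forward strand of chromosome 3 between positions 92215799 and 92433925, a span of 218 kb. Sprr2d (ENSMUSG00000042212.3) was the sixth of them along the chromosome, at 92339140 to 92340873, with 681 bases of exon. Its closest relative by promoter was its neighbour Sprr2e, which began 13003 bases further along. The 250 bases before the start of each gene, taken from RefSeq for GRCm38.p6, are shown because they differ in few positions while the genes differed in their reads. Of the 13 genes, 10 had a promoter in that table. Capitals mark, in order, an AP-1 motif, an octamer motif and a TATA box; Sprr2d lies at chr3:92338890-92339139 and Sprr2e at chr3:92351893-92352142, both on the forward strand.
Sprr2d: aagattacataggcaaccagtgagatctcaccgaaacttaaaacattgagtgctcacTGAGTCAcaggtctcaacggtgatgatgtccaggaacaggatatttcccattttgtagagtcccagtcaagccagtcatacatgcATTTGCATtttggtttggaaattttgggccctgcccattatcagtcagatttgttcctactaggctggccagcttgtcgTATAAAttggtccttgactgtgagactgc
Sprr2e: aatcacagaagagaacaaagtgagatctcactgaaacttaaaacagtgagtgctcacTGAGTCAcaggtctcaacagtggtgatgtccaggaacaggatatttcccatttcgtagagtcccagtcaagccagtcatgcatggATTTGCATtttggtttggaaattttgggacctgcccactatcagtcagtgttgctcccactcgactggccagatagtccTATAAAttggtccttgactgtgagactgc

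In a global alignment the Sprr2e promoter shared 89.3% of aligned positions with that of Sprr2d, the Sprr2i promoter 76.9%, and the other 7 promoters 45.5% to 70%. In Sprr2d the AP-1 motif (TGANTCA) began 193 bases before the start of the gene, followed by the octamer (ATTTGCAT), and the TATA box (TATAAA) began 29 bases before it. Each of the 3 motifs was found in the same 7 of the 10 Sprr2 promoters when both strands were searched. They lay at similar positions in these related promoters, so the 7 are not independent occurrences. The matches in Sprr2d did not overlap. Among 32851 mouse promoters of the same length, 6.75% held the AP-1 motif, 1.6% the octamer and 12.4% the TATA box. No Sprr2 promoter held the NR5A1 motif (TCAAGGTCA, in 0.387% of all promoters), its core (AAGGTCA, 4.08%), an oestrogen response element (0.0639%), a paired interferon-type element (2.98%) or the core of an antioxidant response element (2.47%). An ETS core (GGAAGT, 19.7%) was found in 2 of the 10. These are matches of letters in a short window and were not tested as binding sites.

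Paralogues of this family can share reads, so the overlap of their transcripts was measured. Of the 632 windows of 50 bases in the Sprr2d transcript, 27 (4.27%) also occurred in another Sprr2 transcript, all of them in Sprr2i and 24 in Sprr2e. Of the 652 windows of 30 bases, 73 (11.2%) were shared with any other Sprr2 gene. None of the 582 windows of 100 bases was shared, which is the read length in the labels. Only identical windows were counted, so how reads with mismatches were placed among these genes was not tested. The longest shared run was 76 bases with Sprr2i, and its first 73 bases, in capitals, were shared with Sprr2e as well. It lies in the second exon of Sprr2d, within the coding part, at chr3:92340266-92340341 of GRCm38, and it is shown as the stretch in which these genes are identical, which is shorter than a read.
Shared run: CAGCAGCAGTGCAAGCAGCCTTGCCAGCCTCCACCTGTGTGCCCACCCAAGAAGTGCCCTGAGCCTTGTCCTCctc

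Depth bears on every value below. The values are taken as RPKM, reads scaled to gene length and library size, and 1 read of Sprr2d was worth 0.458 to 0.777 RPKM in a cell of median depth in 11 of the 12 captures. In the second E12.5 capture it was worth 9.95 RPKM, because the estimated median depth there was 0.148M reads per cell, against 1.89M to 3.2M in the other captures. This capture also stood apart from its label: 40 of its 53 cells held transcripts of the Y-linked genes Ddx3y, Uty, Kdm5d or Eif2s3y, against 0 to 4 cells in any other capture, and 19 held Xist, the RNA of the inactive X chromosome. Results at E12.5 are therefore given by capture, so that they can be read with and without it. The third E12.5 capture was sequenced in a second series together with E16.5 and P6, per the sample titles, and all other captures in the first. Nr5a1 was measured in every capture, at capture means of 13.9 to 72.8 RPKM.

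Sprr2d was either very high or nearly absent. It was above 0 in 21 of 662 cells, and these fell into 12 cells at 241 to 4866 RPKM and 9 cells at 0.313 to 1.64 RPKM. The gap between 1.64 and 241 RPKM held no cell. In the second E12.5 capture 1 read was worth 9.95 RPKM at median depth. A value of 1.64 RPKM or less could thus not arise in a cell of that depth. All 12 high cells came from E12.5, and each of the 3 E12.5 captures held some of them.

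In the first E12.5 capture 2 cells reached 255 and 1662 RPKM, which stood for an estimated 850 and 5848 reads. In the second, 3 cells reached 333, 769 and 1591 RPKM, from 14, 739 and 317 reads. In the third, 7 cells reached 241, 399, 579, 875, 2526, 3359 and 4866 RPKM, from 413 to 9914 reads. The ranges of the 3 captures overlapped, and the 3 highest cells of all belonged to the third capture. In these cells Sprr2d was among the most abundant transcripts of the cell: it ranked 4 in the cell at 4866 RPKM, 18 in the cell at 1662 RPKM and 402, its lowest rank, in the cell at 255 RPKM.

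The share of E12.5 cells with Sprr2d above 0 was 4 of 53 in the first capture (7.55%, exact Clopper-Pearson 95% interval 2.09 to 18.2), 3 of 53 in the second (5.66%, 1.18 to 15.7) and 7 of 57 in the third (12.3%, 5.08 to 23.7). These intervals overlap, and they cover counting error only. The mean share was 8.5% ± 3.41 above 0 and 7.24% ± 4.47 at 10 RPKM or more (SD, n = 3 captures). A cutoff of 1, 10 or 100 RPKM gave that same share at E12.5, and the E12.5 cells nearest to the cutoff of 10 RPKM stood at 241 RPKM inside it and at 0.783 RPKM outside it. Over all cells the capture means were 36.2, 50.8 and 225 RPKM, or 104.1 ± 105.2 RPKM (SD, n = 3 captures). Without the third capture the mean was 43.5 ± 10.3 RPKM (n = 2). Few cells set these means: the highest cell held 86.6% of the Sprr2d sum of the first capture, 59.1% of the second and 37.9% of the third, and the 3 highest cells together held 61.6% of the E12.5 sum.

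The other stages lay far below. Mean Sprr2d was 0.00441 RPKM at E10.5 (1 capture), 0.0123 ± 0.00803 RPKM at E11.5, 0 at E13.5, 0.015 ± 0.0212 RPKM at E16.5 and 0.0211 ± 0.0123 RPKM at P6 (SD, n = 2 captures each). At E13.5, 0 of 106 cells had a read, which allows a share of up to 2.83%. At 10 RPKM or more there were 0 of 499 cells outside E12.5, which allows up to 0.601%. In order of level, E12.5 came first, then P6, E16.5, E11.5, E10.5 and E13.5. The lowest E12.5 capture, at 36.2 RPKM, lay above the highest capture of any other stage, at 0.03 RPKM (E16.5). From P6 down to E10.5 each stage rested on 1 or 2 cells, and neighbours in the order differed by less than the larger of their SDs. Of all genes in the table, Sprr2d alone was at 100 RPKM or more in at least 5 E12.5 cells and under 10 RPKM in every cell of the other stages, a rule set after its values were seen.

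**Figure D1:**
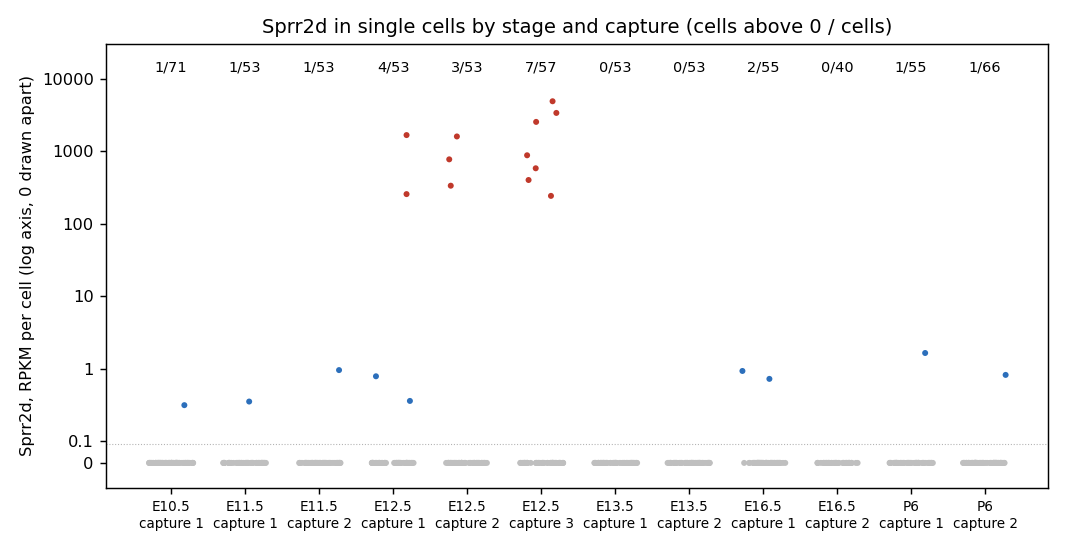
Sprr2d in RPKM on a log axis for every cell, by stage and capture, with cells at 0 drawn apart at the bottom; red points are at 241 RPKM or more, blue points at 1.64 RPKM or less, and the numbers give cells above 0 of all cells. Red points occur in the 3 E12.5 captures only (2, 3 and 7 cells), and no point lies between 1.64 and 241 RPKM.

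The 9 low cells were spread over stages but not over sample titles. They had 1 read each, apart from 1 E11.5 cell with 2 reads. There was 1 such cell at E10.5, 2 at E11.5, 2 in the first E12.5 capture, 2 at E16.5 and 2 at P6. Each title ends in a number from 1 to 8 that the labels do not explain. In the first sequencing series all 5 low cells carried the ending 4, the same as the cell with 5848 reads, whose ending was shared by 50 cells. In the second series the 4 low cells carried the endings 1, 3, 5 and 7, each shared with a high cell of 4089, 1059, 4734 and 9914 reads. Among endings without any high cell, 0 of 191 cells in the first series and 0 of 70 in the second had a Sprr2d read. At endings with a high cell, it was 5 of 193 and 4 of 196 of the cells that were not high. Endings 2, 3 and 6 of the first series and 2 and 8 of the second held a high cell but no low cell. What the ending stands for, and its part in these single reads, was not tested.

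**Figure D2:**
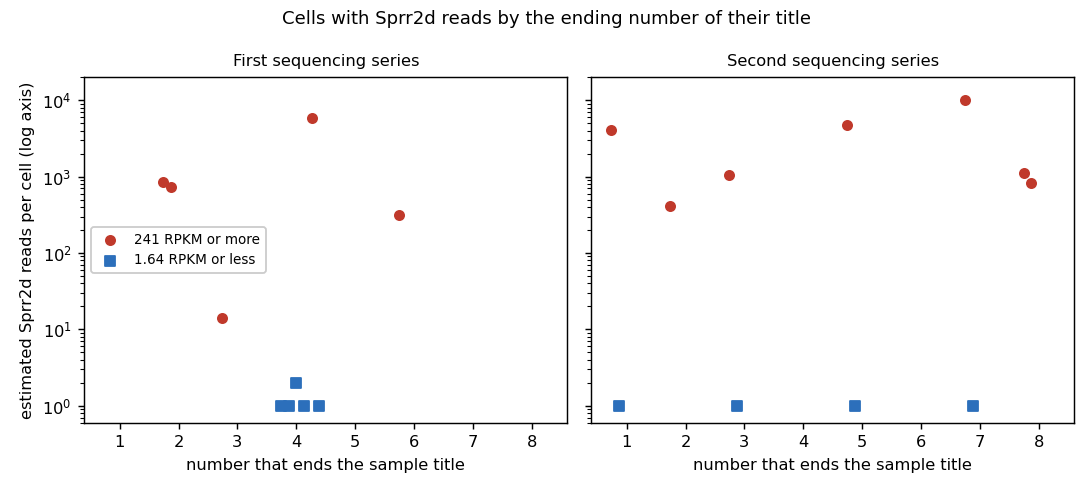
Estimated Sprr2d reads per cell on a log axis against the number that ends the sample title, for the first (left) and second (right) sequencing series; red circles are cells at 241 RPKM or more and blue squares cells at 1.64 RPKM or less. The 5 squares of the first series all stand at the ending 4, below the cell with 5848 reads, and each of the 4 squares of the second stands below a red circle.

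The paralogues were seen in few cells. At E12.5 they were above 0 only in high Sprr2d cells, and at the other stages only in cells without a Sprr2d read. Sprr2a1, Sprr2a2, Sprr2f, Sprr2h and Sprr2k were listed at 0 in all 662 cells. The annotated spans of Sprr2a1 and Sprr2a2 overlap, and how many reads they could share was not tested. Sprr2e and Sprr2i were above 0 in all 3 high Sprr2d cells of the second E12.5 capture. In the cells with Sprr2d at 333, 769 and 1591 RPKM, Sprr2e stood at 25.1, 4.38 and 15.9 RPKM (1, 4 and 3 reads). Sprr2i stood at 26.3, 6.89 and 149.6 RPKM in the same cells (1, 6 and 27 reads). Sprr2b added 1 read in the third of them.

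The high cells of the other E12.5 captures did not show this. In the second capture 43 of 1113 Sprr2 reads of the high cells (3.86%) were listed under other Sprr2 rows. In the first capture it was 0 of 6698, and in the third 1 of 22146 (0.00452%), a single Sprr2a3 read. Sprr2i and Sprr2e were thus listed at 0 even in the cell with 9914 Sprr2d reads. Summed over all Sprr2 rows, the E12.5 mean was 105.6 ± 104.1 RPKM, against 104.1 ± 105.2 RPKM for Sprr2d alone (SD, n = 3 captures). Whether the reads under Sprr2e and Sprr2i in the second capture came from those genes was not tested.

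At E11.5, 4 cells held a different paralogue each at 19.3 RPKM or more, and none of them had a Sprr2d read. Sprr2b was at 19.3 RPKM (61 reads) in 1 cell of the first capture and had 1 read in another. Sprr2e was at 20 RPKM (36 reads) and Sprr2g at 22 RPKM (52 reads) in 2 further cells of that capture. The pseudogene Sprr2c-ps was at 170 RPKM in 1 cell of the second. Later, Sprr2e had 1 read in 1 E16.5 cell and Sprr2j-ps 1 read in 1 P6 cell.

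**Figure D3:**
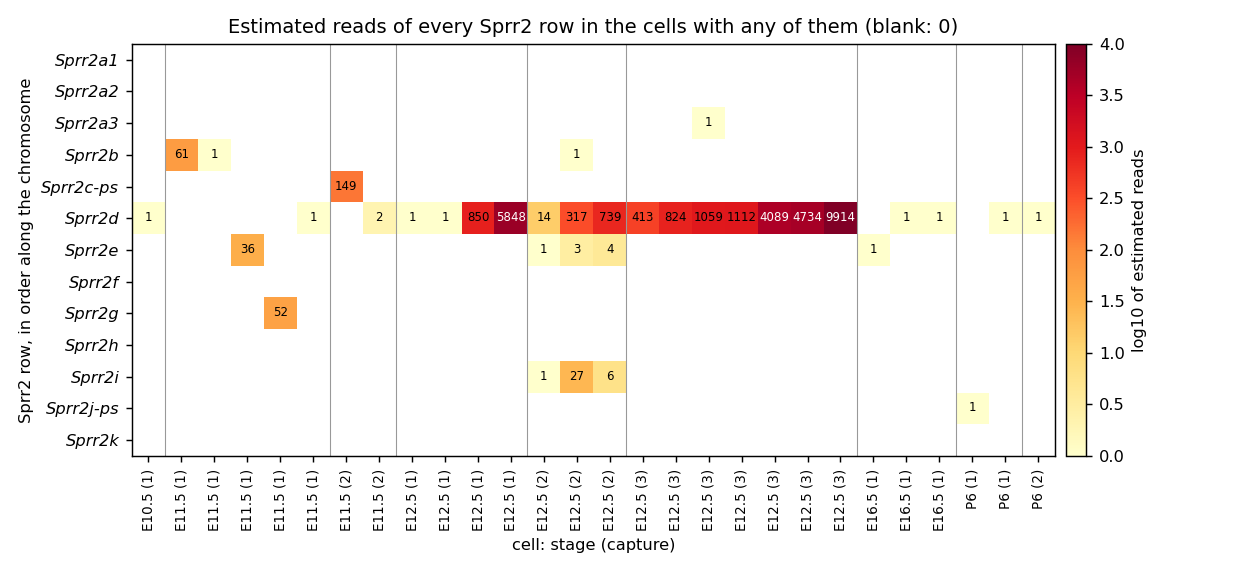
Estimated reads of each Sprr2 row, in order along the chromosome from top to bottom, in each cell with any Sprr2 read, grouped by stage and capture (number in brackets); color gives log10 of the reads, and blank means 0. Reads of Sprr2e and Sprr2i stand beside those of Sprr2d in the 3 cells of the second E12.5 capture, while the 9 high cells of the other E12.5 captures hold Sprr2d alone apart from 1 Sprr2a3 read.

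The high cells were set against the other cells of their own capture. All 12 held Nr5a1 and the reporter. Most other cells did too: Nr5a1 was above 0 in 38 of 51, 40 of 50 and 41 of 50 of them. The reporter was above 0 in 50 of 51, 49 of 50 and 44 of 50. Median Nr5a1 was 92.2 RPKM in the high cells of the first capture, against 8.75 RPKM in its other cells. It was 174 against 22.8 RPKM in the second capture and 93.9 against 13.7 RPKM in the third. Median reporter RNA was 10310 against 1653 RPKM, 10810 against 1873 RPKM and 8598 against 1822 RPKM in the 3 captures. The ranges overlapped, since other cells reached 218 to 464 RPKM of Nr5a1.

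Foxl2 was not a constant companion of Sprr2d. It was above 0 in 0 of 2, 0 of 3 and 3 of 7 high cells of the first, the second and the third capture, against 8 of 51, 2 of 50 and 7 of 50 other cells. The 3 cells had 61.1, 105.9 and 0.167 RPKM of Foxl2, with Sprr2d at 241, 399 and 2526 RPKM. The lowest of these Foxl2 values is close to the worth of 1 read there, 0.129 RPKM. The highest Sprr2d cells, at 4866 and 3359 RPKM, were at 0 for Foxl2. Seen from Foxl2, 0 of 8, 0 of 2 and 3 of 10 cells with Foxl2 carried high Sprr2d in the 3 captures, and 0 of 40 did at E13.5 and 0 of 26 at E16.5. In the second capture the depth of the high cells made 1 Foxl2 read worth 4.98, 0.218 and 1.05 RPKM, so lower levels there were not detectable.

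Fst was found in more of the high cells than Foxl2. It was above 0 in 2 of 2, 0 of 3 and 6 of 7 high cells, against 21 of 51, 7 of 50 and 21 of 50 other cells. In the first capture both values were low, at 0.437 and 4.56 RPKM. In the third capture they ran up to 355 RPKM with a median of 104.5 RPKM, against a median of 0 and a highest value of 460 RPKM in the other cells. Of the cells with Fst, 2 of 23, 0 of 7 and 6 of 27 carried high Sprr2d, and 0 of 72 did at E13.5 and 0 of 37 at E16.5. With every cell above 0 counted as a carrier, the mean share over captures was 22.6% ± 21.5 with Foxl2 and 53.6% ± 46.7 with Fst (SD, n = 3). Without the second capture these shares were 33.9% ± 12.6 and 80.4% ± 7.58 (n = 2). In the first capture the Foxl2 share then rested on 1 of 4 carriers, a cell with 1 Sprr2d read. That cell had 8.41 RPKM of Foxl2 and 419 RPKM of Fst. Among the high cells alone, Foxl2 was in 0 of 2 in the first capture and 3 of 7 in the third.

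The wider marker lists were read in the same way, as sums of RPKM over the list. The 12 supporting-cell markers had median sums of 357, 78.2 and 671 RPKM in the high cells of the 3 captures, against 118.4, 24.9 and 111.6 RPKM in the other cells. A few genes carried the sum in the first and the second capture: by mean, 4, 1 and 9 of the 12 markers were higher in the high cells of the 3 captures, and 4, 6 and 1 were at 0 in all of them. Among the 12, Runx1, which encodes a transcription factor of supporting cells, was above 0 in 2 of 2, 1 of 3 and 7 of 7 high cells, against 22 of 51, 11 of 50 and 22 of 50. The 12 stroma markers had median sums of 121.7, 79.9 and 44.9 RPKM in the high cells, against 442, 206 and 202 RPKM. Nr2f2, an orphan nuclear receptor gene of interstitial cells, had medians of 115.8 and 54.1 RPKM in the high cells of the first and the second capture, against 212 and 46.9 RPKM, so the direction differed. In the third capture it ran from 2.2 to 90.2 RPKM in the high cells, against 4.14 to 1045 RPKM in the others. Ranges overlapped for each list in each capture.

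Markers of other cell types were read beside these. Wt1, a transcription factor gene of gonadal somatic cells, was above 0 in all 12. It was also above 0 in 51 of 51, 44 of 50 and 47 of 50 other cells of the 3 captures. Its medians were 106.1, 23.6 and 279 RPKM in the high cells, against 154.4, 21.7 and 87.8 RPKM. Of the 10 Sertoli-cell markers, 8, 9 and 9 were at 0 in all high cells of the 3 captures. Their sums had medians of 30.6, 3.92 and 0 RPKM in the high cells, against 0.0606, 0.216 and 0 RPKM in the others, and any of them was above 0 in 2 of 2, 2 of 3 and 1 of 7 high cells, against 26 of 51, 25 of 50 and 16 of 50. Sry and Amh were at 0 in every E12.5 cell, while Sox9 was above 0 in 1 of 2, 2 of 3 and 1 of 7 high cells, against 20 of 51, 21 of 50 and 10 of 50 others. Surface-epithelium sums had medians of 346, 96 and 210 RPKM in the high cells, against 162.7, 78.5 and 193 RPKM. By mean, only 2, 1 and 1 of these 10 markers were higher in the high cells, and 6, 3 and 3 were at 0 in all of them. The 8 keratinocyte markers had median sums of 1.06, 14.2 and 0.508 RPKM in the high cells, against 0, 1.99 and 0.179 RPKM in the others, and 6, 7 and 6 of the 8 were at 0 in all high cells. Their highest sums were 2.05, 31 and 14.6 RPKM in the high cells, against 42, 154.6 and 34.1 RPKM. Germ-cell sums reached at most 0, 29.8 and 3.33 RPKM, endothelial sums 0, 0 and 71.8 RPKM, and blood sums 0, 63.7 and 0 RPKM in the high cells. In the other cells germ-cell sums reached 190, 70.1 and 210 RPKM, endothelial sums 74.3, 87.4 and 364 RPKM, and blood sums 0, 102.2 and 17.4 RPKM. Fetal Leydig sums had medians of 148.8, 8.37 and 0.0686 RPKM in the high cells, against 0 in the other cells of each capture. They reached 277, 16.2 and 141.3 RPKM, against 205, 898 and 420 RPKM in the other cells. Thus 1 high cell of the first capture lay above all other cells of that capture. By mean, only 1, 1 and 2 of these 5 markers were higher in the high cells, and 4, 3 and 2 were at 0 in all of them. The sums of the first capture's high cells thus rested on 1 marker. Cell-cycle sums had medians of 29, 434 and 20.4 RPKM in the high cells, against 89.3, 131.4 and 49.9 RPKM, so the second capture ran the other way.

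The high cells of the second capture also differed in the sex-chromosome transcripts. All 3 held Y-linked transcripts and none held Xist, and 3 of its 40 cells with a Y-linked transcript carried high Sprr2d, against 0 of its 13 cells without one. The 9 high cells of the first and the third capture held no Y-linked transcript, and all 9 held Xist. Depth was 4.89M and 5.17M reads in the high cells of the first capture, against a median of 2.69M and a highest value of 5.09M in its other cells. In the second it was 0.0617M, 0.293M and 1.41M, against a median of 0.135M, and in the third the median was 2.52M against 2.51M. The cell of the second capture with 1.41M reads, at 769 RPKM of Sprr2d, had 9277 detected genes, against at most 6013 in the 50 other cells of that capture. The part of depth, of detected genes and of these transcripts in the cells' Sprr2d was not tested.

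**Figure D4:**
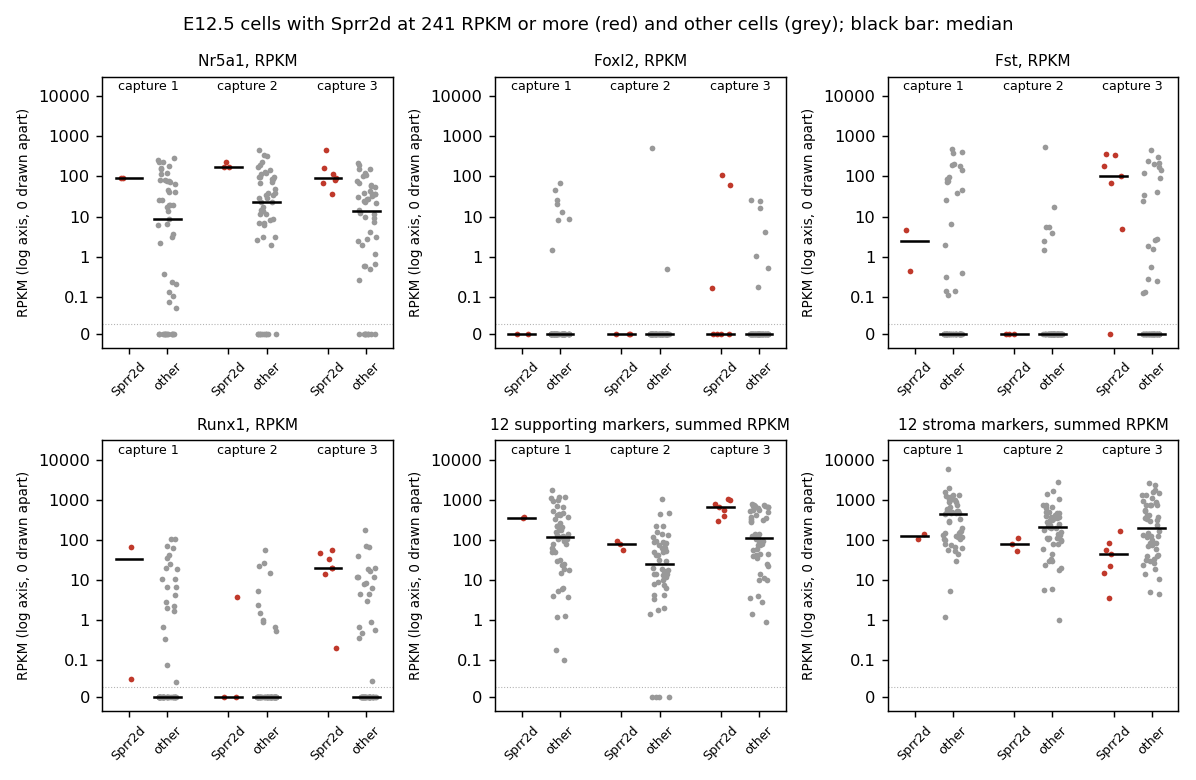
Nr5a1, Foxl2, Fst and Runx1 in RPKM, and the summed RPKM of 12 supporting-cell and 12 stroma markers, in each E12.5 cell on a log axis with 0 drawn apart, by capture; red points on the left of each pair are cells with Sprr2d at 241 RPKM or more, grey points the other cells, and black bars medians. Medians of Nr5a1 and of the supporting sum are higher in the red cells of each capture, Foxl2 is above 0 in 3 red cells of the third capture only, and the ranges overlap throughout.

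Genes that followed Sprr2d within captures were ranked by the lowest of the 3 Pearson correlations over cells (log2 of RPKM + 1), among 7975 genes found in at least 10% of cells of each E12.5 capture. These are descriptions, since the cells of a capture share its chip and Sprr2d is at 0 in nearly all of them. The genes were picked in these same cells, so their higher shares and medians in the high cells follow from the ranking. Aldh1b1, which encodes a mitochondrial aldehyde dehydrogenase, came first, with r = 0.463, 0.552 and 0.482 over 53, 53 and 57 cells. It was above 0 in 2 of 2, 3 of 3 and 6 of 7 high cells, against 15 of 51, 7 of 50 and 12 of 50 others. The next 9 were Mettl20, Zfp771, Ces1h, Med9, Tmem106b, Inha, Bhlhe41, Zfp612 and Ccdc186, with lowest correlations of 0.368 down to 0.279. Inha, the alpha subunit of inhibin, had medians of 340, 64.4 and 68.4 RPKM in the high cells, against 0, 0 and 0.219 RPKM. Bhlhe41, a basic helix-loop-helix repressor gene, had medians of 266, 55.4 and 350 RPKM, against 0.201, 0 and 0.149 RPKM. By Spearman correlation only 1 of these 10 genes stayed in the leading 10. Fst had r = -0.019, -0.076 and 0.384, and Foxl2 r = -0.073, -0.036 and 0.239.

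Across the 12 capture means, compared over 14317 genes, the pattern most like that of Sprr2d belonged to Ugt2b36, a glucuronosyltransferase gene, with Pearson r = 0.969. It averaged 1.23, 1.18 and 3.95 RPKM in the E12.5 captures, against 0 to 0.276 RPKM in the others. Mapk15, Clec4a1, Nos3, Arhgap20os, Tff1, Tmem116, Cd244, Klk1 and Myct1 followed, with r = 0.922 down to 0.867. Tff1, which encodes a secreted trefoil peptide of mucous epithelia, had E12.5 capture means of 3.19, 0.744 and 1.7 RPKM and was listed at 0 in the 9 others. Klk1, a tissue kallikrein gene, was at 7.62, 3.76 and 13.8 RPKM at E12.5, against 2.52 and 2.02 RPKM at E11.5 and at most 0.607 RPKM in the captures of the other stages. Such an r rests on 3 captures that are high against 9 that are low. Only genes that reached a mean of 1 RPKM in any capture were compared. All of the genes named here but Tmem116 and Klk1 reached it at E12.5 alone, so their likeness was partly set by that filter. None of the 10 genes was in the leading 10 by Spearman correlation, and 3 were without the second E12.5 capture.

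Genes with roles near those of the family were tested for change with stage. limma was fitted to the log2 capture means with stage and sequencing series as terms, and p-values were adjusted over all 19710 genes kept (Benjamini-Hochberg). At an adjusted p under 0.05 it called 0 genes (0%) for E12.5 against E11.5 and 0 (0%) for E13.5 against E12.5, while 1588 and 1628 genes had an unadjusted p under 0.05. For E12.5 against the mean of its 2 neighbouring stages it called 1 gene (0.00507%). That gene was Sprr2d itself, which was chosen for this pattern, so the call is no support for it. Only E12.5 was in both series, which leaves its first and second captures to set its fitted value. Over 6 lists with 90 genes, of which 60 were kept, none was called in any of the 3 comparisons.

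Of the other small proline-rich genes, Sprr1a was at 134.2 RPKM in 1 E16.5 cell, Sprr1b at 4.88 RPKM in 1 E10.5 cell and Sprr3 at 1.01 RPKM in 1 cell of the second E12.5 capture. Sprr4 was listed at 0 throughout. Among 26 genes of the cornified envelope, 11 were kept and 0 called, with a median log2 change of 0.35 for E12.5 against E11.5 and -0.51 for E13.5 against E12.5, beside -0.03 and 0.10 over all genes. The junction gene Jup averaged 8.29 and 6.91 RPKM at E11.5, 5.26, 18.3 and 9.35 RPKM at E12.5, and 4.34 and 9.19 RPKM at E13.5. The transglutaminase gene Tgm5 was at 23.8 RPKM in the first E12.5 capture, 0 in the second and in the third, and at most 0.458 RPKM at E11.5. Krt10, a keratin gene of upper epidermis, was at 1.04, 17.2 and 3.26 RPKM in the captures of E12.5.

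Of 13 genes of S100 calcium-binding proteins of the complex, 9 were kept and 0 called, with median log2 changes of 0.87 for E12.5 against E11.5 and -0.24 for E13.5 against E12.5. S100a11 stood at 233 and 215 RPKM at E11.5, 249, 255 and 247 RPKM at E12.5, and 214 and 212 RPKM at E13.5. S100a10 averaged 126.3 ± 48.3 RPKM and S100a6 33.5 ± 30.7 RPKM at E12.5 (SD, n = 3 captures).

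Of 25 transcription factor genes of epidermal differentiation, 21 were kept and 0 called, with median log2 changes of 0.12 and 0.10. Fos and Jun, which encode parts of AP-1, averaged 264, 833 and 190 RPKM and 51.8, 586 and 43.4 RPKM in the E12.5 captures, highest in the second for both. Klf4, a factor of the epidermal barrier, was at 18, 58.9 and 17.8 RPKM there. Of 12 regulators and targets of NRF2, the oxidative stress factor, 10 were kept and 0 called, with median log2 changes of -0.12 and 0.01. Nfe2l2, the NRF2 gene, averaged 22.8 ± 16.6 RPKM, Hmox1 20.8 ± 9.44 RPKM and Txnrd1 13.2 ± 6.05 RPKM at E12.5 (SD, n = 3 captures). Of 10 steroid receptor and coactivator genes, 8 were kept and 0 called, with median log2 changes of -0.03 and 0.70. At E12.5 Ncoa3 averaged 13.8 ± 9 RPKM, Ncoa1 7.77 ± 5.04 RPKM and Greb1 4.91 ± 1.91 RPKM (SD, n = 3 captures).

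Single captures moved these counts. Without the first E12.5 capture the shallow second capture alone sets the fitted E12.5 value. For E12.5 against E11.5 the log2 changes were then 3.41 for Jun, 4.05 for Jund and 1.42 for Fos. They were 2.79 for Cebpb and 1.43 for Krt1. For E13.5 against E12.5 they were -2.99 for Jun, -4.45 for Jund, -2.59 for Cebpb, -1.22 for Krt1 and 2.67 for Ncoa1. These members were picked by this same fit, so their changes are no result about the lists. Without the second E12.5 capture the first alone sets the fitted E12.5 value. The log2 changes for E12.5 against E11.5 and E13.5 against E12.5 were then 4.12 and -4.63 for Tgm5. For S100a3 they were 2.01 and -2.01. Tgm5 was at 23.8 RPKM in that first capture and at 0 in the third. Without the third E12.5 capture 1 and 1 genes passed. Without either E11.5 capture 206 genes passed for E12.5 against E11.5, with no list member. Without the first or the second E13.5 capture 168 and 164 genes passed for E13.5 against E12.5, with S100a7a in the first case. For E12.5 against both neighbours the counts were 1951 and 203 without the first and without the second capture of E12.5, and 53 without the second E11.5 capture, and Sprr2d was no longer called without the first E11.5 capture or any capture of E13.5, E16.5 or P6. Each of these fits leaves a stage with fewer captures, and a lone capture is assumed to vary like the others.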

How the data were processed

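The authors deposited 1 table of values per gene and cell, without naming a unit. Whole-read steps in the deposited values led to their reading as RPKM, and the labels state reads of 100 bp. Aligner, counting tool, use of strand and annotation are not given in the sources used, and the build was GRCm38.p3 (mm10), per the submitters' processing notes. Names turned into dates (27) were left out. A repeat library (r = 0.9956 with its first) was averaged with it, so 663 libraries gave 662 cells. Reads were estimated by multiplying a value by exon length and dividing by the worth of 1 read in its cell. That worth was the commonest product of value and exon length among the lowest nonzero values of the cell. Every nonzero Sprr2 value came within 0.02 of a whole number, as did a median of 72.63% of low values per cell (lowest 63.41%). No count model was used, no cell was removed and no doublet caller was run. The capture was the replicate. No label ties a capture to a litter, and the spread behind each p-value may be technical. limma 3.58.1 in R 4.3.3 was fitted to log2(capture mean + 1), for genes that reached a mean of 1 RPKM in any capture, and was tested on simulated data. This scale understates changes of low genes. Limits from 0 cells use 3 counts, and intervals and limits cover counting error only, since the protocol names no molecular identifiers. Named genes were all Sprr2 rows, the called members of each list or else its 3 members with the highest E12.5 mean, the 10 genes most like Sprr2d by each measure, and Foxl2, Fst, Nr5a1, Wt1 and Y-linked genes. Other genes were named after their values were seen. Members and lists were chosen with earlier results of these data known.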

Additional observations from a re-analysis of the deposited data

How the results depend on the processing

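Other cutoffs, leaving out shallow cells and keeping the repeat library apart moved the Sprr2d share and mean at E12.5 and the shares of its carriers with Foxl2 and Fst by less than 1 SD between captures, an SD that is itself large. The mean depended on the third capture. Leaving out 1 E12.5 capture gave shares of 6.6% to 9.91%, means of 43.5 to 138.1 RPKM, Foxl2 shares of at most 33.9% and Fst shares of 37.5% to 80.4%. With carriers at 1, 10 or 100 RPKM or more, Foxl2 was in 14.3% ± 24.7 and Fst in 61.9% ± 54.1 of them (SD, n = 3 captures). Without shallow cells the share was 8.97% and the mean 108.2 RPKM, and with the repeat library kept apart 8.43% and 102.8 RPKM. Using only cells without Y-linked transcripts in the second E12.5 capture left no carrier there. The Foxl2 share over the other 2 captures was 33.9%, with every cell above 0 counted as a carrier. With no filter on low values 42 genes were called for E12.5 against E11.5, 24 for E13.5 against E12.5 and 34 for E12.5 against both neighbours. The single call of the comparison with both neighbours went to 0 with a pseudocount of 0.1 RPKM, without the series term, in the first series alone and with means of log2 values. Leaving out 1 capture gave 0 to 1594, 0 to 1609 and 0 to 1951 calls for the 3 comparisons, and the cause was not tested. No paired analysis was possible because capture numbers only name captures and do not link them between stages. Depth limits the second E12.5 capture, where 3 Sprr2d reads were worth 29.8 RPKM at its median depth, so fainter carriers there were not detectable.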
